A study of Homo sapiens with 8 samples.

Results

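The 10 genes described here make, regulate and break down polyamines: ODC1, SRM, SMS, AMD1, SAT1, SMOX, OAZ1, OAZ2, AZIN1 and MTAP. They were chosen by symbol, and all 10 were found among the 19414 coding genes listed for each library. Their RNA levels were read from sequenced libraries of U2OS, a long-established human bone tumour (osteosarcoma) cell line, in 4 genotypes of 2 libraries each. The genotypes were Zab with overexpressed MYC (Zab+MYC), overexpressed MYC alone (MYC), Zab alone (Zab), and WT, which carries neither. Zab, written Zαβ in the design, commonly denotes the Zα and Zβ domains of ADAR1, an RNA editor, the first of which binds left-handed (Z-form) DNA and RNA. The promoters that drive MYC and Zab, and whether the lines are clones or pools, are not given in the sources used here. The series is titled for MYC, FACT (a histone chaperone) and Z-DNA, and the design asks how the response to MYC differs where Zab is present.

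Polyamines (putrescine, spermidine and spermine) are small positively charged molecules that bind nucleic acids, and dividing cells need them. Ornithine decarboxylase, encoded by ODC1, makes putrescine from ornithine. AMD1 makes decarboxylated S-adenosylmethionine, and the synthases SRM and SMS use it to build spermidine and then spermine. Antizymes, encoded by OAZ1 and OAZ2, are made when polyamines are abundant. They send ornithine decarboxylase to the proteasome, and AZIN1 binds antizymes in its place. SAT1 acetylates spermidine and spermine for export or oxidation, SMOX oxidises spermine, and MTAP recycles the methylthioadenosine that the synthases release. ODC1 is a long-known direct target of the transcription factor MYC.

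Levels are given as CPM, exon tags scaled to 1 common total over the tested genes with TMM factors, and tests are limma's on log2(CPM + 2), with a call at a Benjamini-Hochberg adjusted p under 0.05 over all 9673 genes that passed the filter on low values. All 10 polyamine genes passed it. Exon tags per library ran from 686992 to 1326170. MYC stood at 718 and 716 CPM in Zab+MYC, 1255 and 1308 in MYC, 233 and 197 in Zab, against 73.6 and 96.2 in WT. ADAR, whose tags may include the Zab construct, stood at 1083 and 1034 CPM in Zab+MYC, 251 and 234 in MYC, 6092 and 6286 in Zab, against 268 and 274 in WT. Of 6 mesenchymal and osteoblast markers 5 were tested, with VIM between 4876 and 7417 CPM, but COL1A2 had 1 tag over all libraries. The 6 markers summed to 7739 to 7862 CPM in Zab+MYC, 5389 to 5547 in MYC, 8622 to 9034 in Zab and 10250 to 10447 in WT. The sum is mostly VIM, and in MYC against WT COL1A1 was 9.71-fold and SPARC 4.83-fold lower. Epithelial markers summed to at most 6.40 CPM and leukocyte markers, of which CD3E was at 0, to at most 11.6. Exons held a share of all tags of 69.1% to 69.2% in Zab+MYC, 75.9% to 76.1% in MYC, 60.6% to 60.9% in Zab and 70.6% to 71.1% in WT. What part the marker and exon share differences have in the values below was not tested.

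The 2 libraries of a group differed by no more than counting error in Zab+MYC, MYC and Zab, and by slightly more in WT. Over genes with at least 25 tags, the chi-square statistic per degree of freedom was 1.005 in Zab+MYC, 1.001 in MYC, 1.003 in Zab and 1.03 in WT (chi-square test, one-sided p = 0.382, 0.466, 0.415 and 0.0251 in that order of groups). Nothing in the labels says that they came from separate cultures, and whether each pair is 1 preparation sequenced in 2 parts was not tested. The p-values therefore measure little more than counting error between these libraries and say nothing of the spread between cultures. For that reason ratios of the 2 libraries summed as 1 sample are also given. Each has an exact 95% counting interval, which covers counting error only. The chi-square statistic and these intervals rest on the unit taken as 1 tag, an assumption given with the processing below.

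The levels of the 10 genes spanned a wide range, and 3 of them stood far above the others. On a scale of CPM per kb of the counted transcript, which allows genes to be compared, SRM averaged 538 ± 11.4 (SD, n = 2) in WT, OAZ1 373 ± 10.5 and ODC1 202 ± 0.651. The next was SAT1 at 31.5 ± 8.14 CPM per kb in WT, followed by SMS at 28.6 ± 3.76, SMOX at 22.0 ± 0.151, OAZ2 at 18.3 ± 0.531 and AMD1 at 17.4 ± 1.91. AZIN1 (5.96 ± 0.962 CPM per kb) and MTAP (5.07 ± 0.350) were lowest in WT. The 2 WT libraries overlapped between SAT1 and SMS, between OAZ2 and AMD1, and between AZIN1 and MTAP, so these neighbours were not separated. In MYC the order at the top was SRM at 2349 ± 32.6 CPM per kb, ODC1 at 834 ± 13.3 and OAZ1 at 488 ± 21.8, with ODC1 above OAZ1, while in WT it was below. SAT1, the fourth in WT, was eighth in MYC at 16.8 ± 2.97 CPM per kb, where its libraries overlapped those of OAZ2. ODC1 and SRM held 81.0% and 81.6% of the summed CPM of the 10 genes in Zab+MYC, 83.8% and 84.0% in MYC, 72.6% and 73.97% in Zab, against 62.7% and 63.5% in WT.

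**Figure D1:**
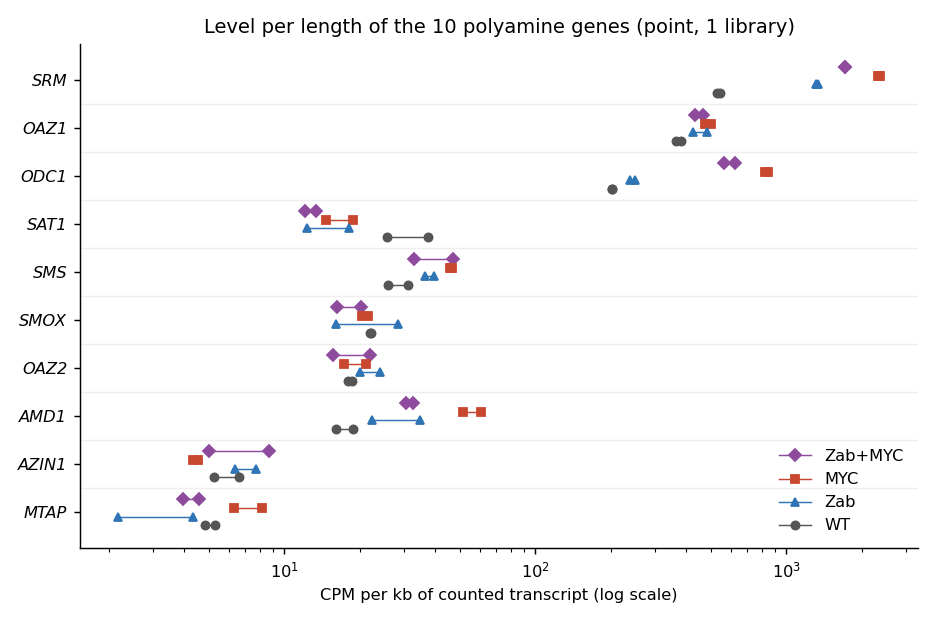
Level of each polyamine gene in CPM per kb of counted transcript (log axis), 1 point per library, with the 2 libraries of a group joined. SRM, OAZ1 and ODC1 lie far above the other 7 genes in every group, and ODC1 lies above OAZ1 in MYC and Zab+MYC and below it in Zab and WT.

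ODC1 and SRM, the enzymes that open putrescine and spermidine synthesis, varied most between genotypes in CPM. ODC1 (chromosome 2, 10580094 to 10588453, minus strand, hg19) stood at 1577 and 1527 CPM in Zab+MYC, 2349 and 2296 in MYC, 697 and 667 in Zab, against 561 and 563 in WT. SRM (chromosome 1, 11114646 to 11120075, minus strand) stood at 2139 and 2140 CPM in Zab+MYC, 2895 and 2953 in MYC, 1630 and 1670 in Zab, against 659 and 680 in WT. For both genes MYC was highest, Zab+MYC next, Zab below it and WT lowest, with no overlap between any 2 groups. The same order without overlap was found in 6.92% of all tested genes, and in these 2 of the 10 polyamine genes. It is also the order of the MYC level above. ODC1 was counted on a longer transcript in 7 libraries and on a shorter one in Zab+MYC replicate 2, whose CPM lay close to that of its partner.

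Both genes hold CACGTG, the E-box that MYC binds with its partner MAX, in a promoter window of 300 bases (250 before to 50 after a transcript start; RefSeq, GRCh38.p14). The 2 windows are shown because they belong to the 2 genes that follow the order of the MYC level without overlap, with each CACGTG in capitals. AMD1 and SMS follow that order by group means only, and their windows hold no CACGTG. The ODC1 window is chr2:10447963-10448262 on the minus strand, where the motif begins 29 bases before the start and again at base 6 after it. The SRM window is chr1:11059969-11060268 on the minus strand, with the motif 199 bases before the start.
ODC1: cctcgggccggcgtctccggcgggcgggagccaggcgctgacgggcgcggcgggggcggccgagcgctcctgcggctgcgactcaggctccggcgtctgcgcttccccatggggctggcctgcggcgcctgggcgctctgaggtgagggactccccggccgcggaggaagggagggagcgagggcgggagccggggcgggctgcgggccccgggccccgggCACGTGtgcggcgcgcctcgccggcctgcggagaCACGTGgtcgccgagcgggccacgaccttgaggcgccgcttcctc
SRM: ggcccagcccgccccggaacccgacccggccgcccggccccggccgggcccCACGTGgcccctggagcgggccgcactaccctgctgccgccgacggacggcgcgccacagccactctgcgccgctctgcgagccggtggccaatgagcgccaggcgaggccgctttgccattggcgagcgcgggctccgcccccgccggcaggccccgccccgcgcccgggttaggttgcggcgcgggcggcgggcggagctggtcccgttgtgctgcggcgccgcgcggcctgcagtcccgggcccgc
The other ODC1 window, at a start further upstream (chr2:10448278-10448577, minus strand), holds no CACGTG. Of the 8 polyamine genes with a window (SMOX and AZIN1 had none), these 2 were the only ones with the motif, which reads the same on both strands and lies in a window of 8.77% of all 27305 genes with one. GCGCGC, an alternating purine-pyrimidine run that also reads the same on both strands, was in the windows of ODC1, SRM, SAT1 and OAZ1, against 21.8% of all genes. CACACA or its reverse complement TGTGTG was in the MTAP window and in those of 20.0% of all genes. No such match shows binding or Z-DNA, and what part any motif has in the levels or their order was not tested.

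AMD1 and SMS supply and use the aminopropyl group for the later steps. AMD1 (chromosome 6, 111195987 to 111216915, plus strand) stood at 104 and 111 CPM in Zab+MYC, 175 and 208 in MYC, 119 and 76.3 in Zab, against 64.0 and 54.8 in WT. MYC lay above and WT below all other libraries, and the Zab libraries spread to both sides of the Zab+MYC pair. SMS (chromosome X, 21958827 to 22012955, plus strand) stood at 55.3 and 79.1 CPM in Zab+MYC, 78.2 and 76.8 in MYC, 66.2 and 61.4 in Zab, against 52.5 and 43.5 in WT. The Zab+MYC libraries of SMS enclosed those of MYC and Zab, and WT was lowest. SRM had 38.7 and 27.05 tags per SMS tag in Zab+MYC, 37.0 and 38.4 in MYC, 24.6 and 27.2 in Zab, against 12.6 and 15.6 in WT.

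The antizyme genes moved less. OAZ1 (chromosome 19, 2269485 to 2273487, plus strand) stood at 546 and 509 CPM in Zab+MYC, 590 and 554 in MYC, 562 and 497 in Zab, against 428 and 446 in WT. The 2 WT libraries lay below the other 6, which overlapped among themselves except that both MYC libraries lay above both Zab+MYC libraries. ODC1 had 2.89 and 2.999 tags per OAZ1 tag in Zab+MYC, 3.98 and 4.15 in MYC, 1.24 and 1.34 in Zab, against 1.31 and 1.26 in WT. The ratio was thus higher in the groups with overexpressed MYC, while Zab and WT overlapped. OAZ2 (chromosome 15, 64979773 to 64995480, minus strand) ran from 30.2 to 46.6 CPM over all libraries, and all groups overlapped with at least 1 other. AZIN1, the antizyme inhibitor (chromosome 8, 103838530 to 103876428, minus strand), ran from 18.9 to 38.0 CPM. The 2 libraries of Zab+MYC lay at 38.0 and 20.9 CPM and so enclosed all others except MYC, at 19.0 and 18.9. AZIN1 was counted on 7 different transcripts in the 8 libraries, which adds uncertainty to its values.

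Of the turnover genes, SAT1 (chromosome X, 23801275 to 23804340, plus strand) stood at 14.3 and 12.9 CPM in Zab+MYC, 15.6 and 20.1 in MYC, 13.1 and 19.2 in Zab, against 39.7 and 27.4 in WT. Both WT libraries lay above the other 6. SAT1 is a low gene here, with 24 tags in Zab+MYC, 42 in MYC, 24 in Zab and 56 in WT, each summed over 2 libraries. SMOX (chromosome 20, 4129426 to 4168394, plus strand) ran from 37.1 to 60.8 CPM, and the 2 Zab libraries held both of these extremes. MTAP (chromosome 9, 21802635 to 21867080, plus strand) stood at 27.7 and 23.7 CPM in Zab+MYC, 49.3 and 37.8 in MYC, 13.1 and 26.1 in Zab, against 32.0 and 29.0 in WT. MYC was highest for MTAP and WT next, and Zab+MYC and Zab overlapped below them.

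**Figure D2:**
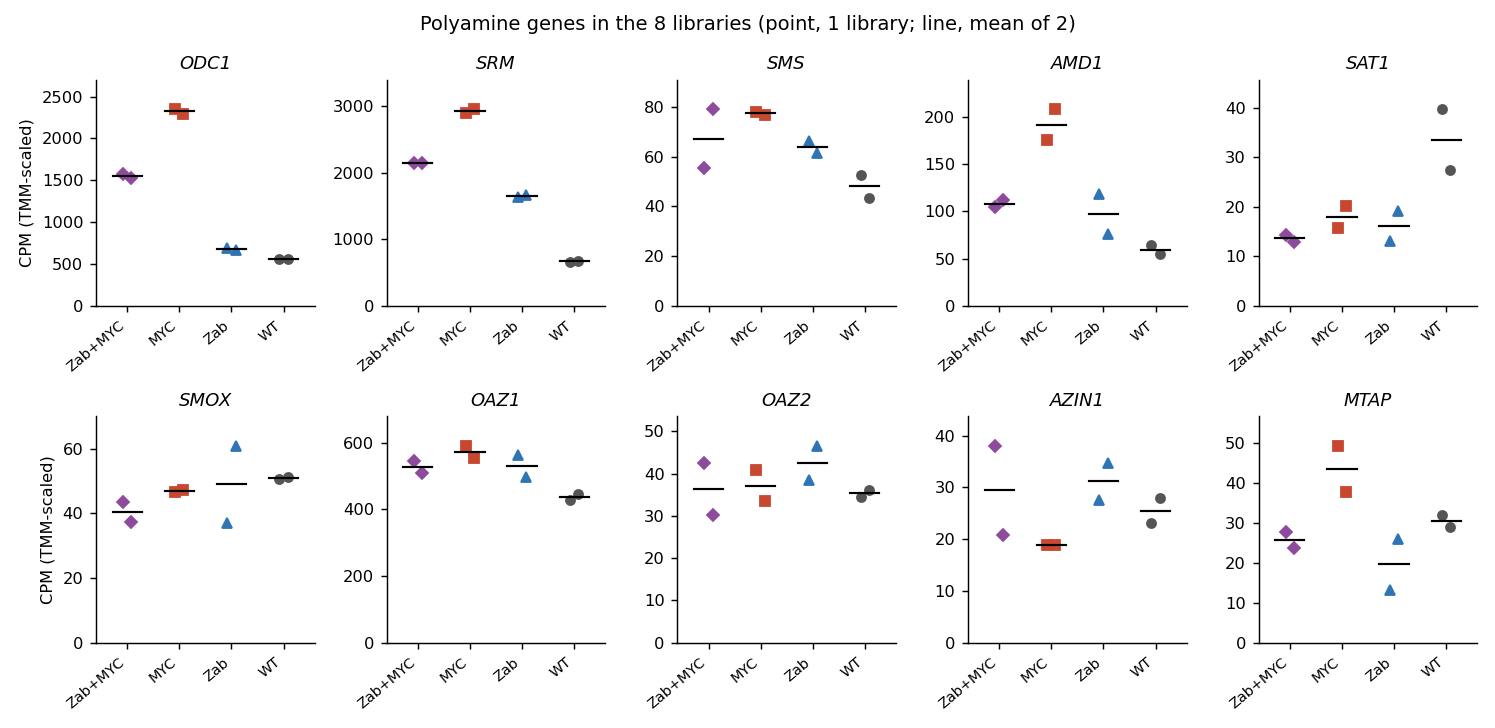
CPM of each polyamine gene (y axis, from 0, own scale per gene) in the 4 genotypes, with 1 point per library and a line at the mean of 2. ODC1 and SRM separate all 4 genotypes, SAT1 is highest in WT, and SMOX, OAZ2 and AZIN1 have groups whose libraries lie far apart.

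The first comparison asks how the genes differ with overexpressed MYC where Zab is absent. In MYC against WT 6 of the 10 genes were called, against 58.2% of all tested genes. Of them 5 rose and 1 fell, against 27.8% of all tested genes called higher and 30.4% called lower. The median log2 fold change was 0.43 for the 10 genes and -0.04 for all tested genes. SRM rose 4.36-fold (log2 2.12 ± 0.043 SE, adjusted p = 7.2e-53) and ODC1 rose 4.12-fold (log2 2.04 ± 0.051, adjusted p = 6.1e-47). The summed libraries gave a ratio of 4.37 for SRM (counting interval 4.10 to 4.65) and 4.13 for ODC1 (3.85 to 4.43). AMD1 rose 3.15-fold (log2 1.66 ± 0.16, adjusted p = 7.3e-15), SMS 1.60-fold (log2 0.67 ± 0.19, adjusted p = 0.0019) and OAZ1 1.31-fold (log2 0.39 ± 0.073, adjusted p = 5.5e-06). All 4 enzymes of the synthesis route were thus called higher. SAT1 fell 1.77-fold (log2 -0.83 ± 0.32, adjusted p = 0.024), with a summed ratio of 0.558 (counting interval 0.365 to 0.848). The SAT1 call ended without MYC replicate 1 (adjusted p = 0.20), without WT replicate 1 (0.27), with no filter on low values (0.077) and with DESeq2 (0.14). MTAP (log2 0.48, adjusted p = 0.14), AZIN1 (-0.39, 0.25), SMOX (-0.12, 0.68) and OAZ2 (0.06, 0.85) were not called. RNA came from whole cultures, so fewer cells of a kind and less RNA per cell cannot be told apart.

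The second comparison asks what differs with Zab where MYC is not overexpressed. In Zab against WT 5 of the 10 genes were called, against 24.4% of all tested genes. Of them 4 rose and 1 fell, against 13.1% of all tested genes called higher and 11.3% called lower. SRM rose 2.46-fold (log2 1.30 ± 0.043, adjusted p = 2.6e-38), with a summed ratio of 2.46 (counting interval 2.30 to 2.64). ODC1 rose 1.21-fold (log2 0.28 ± 0.051, adjusted p = 1.6e-05), AMD1 1.59-fold (log2 0.67 ± 0.16, adjusted p = 0.00073) and OAZ1 1.21-fold (log2 0.27 ± 0.073, adjusted p = 0.003). SAT1 fell 1.96-fold (log2 -0.97 ± 0.32, adjusted p = 0.02), with a summed ratio of 0.491 (counting interval 0.291 to 0.806). MTAP (log2 -0.66, adjusted p = 0.079), SMS (0.40, 0.12), OAZ2 (0.25, 0.50), AZIN1 (0.27, 0.55) and SMOX (-0.09, 0.82) were not called. MYC itself was higher in Zab than in WT, at 215 ± 25.6 against 84.9 ± 16.0 CPM (SD, n = 2 each), and its part in these values was not tested. The comparison shares its WT libraries with MYC against WT.

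These Zab calls were less firm than those with MYC alone. On the scale the authors deposited, where the median of all tested genes was -0.52 in log2, ODC1 and OAZ1 turned to log2 -0.27 each (adjusted p = 9.7e-06 and 0.0013), both still above that median. On it SRM kept a log2 of 0.75, 5 genes were called lower and 1 higher. The AMD1 call ended on that scale (adjusted p = 0.49), with DESeq2 (0.051) and without Zab replicate 1 (0.18). That of OAZ1 ended with DESeq2 (0.090) and without Zab replicate 1 (0.13), and that of SAT1 without Zab replicate 1 (0.19), without WT replicate 1 (0.26), with no filter (0.069) and with DESeq2 (0.23). MTAP was called lower without Zab replicate 2 (log2 -1.09, adjusted p = 0.009). DESeq2 and the set without Zab replicate 1 each left 2 of the 10 genes called, ODC1 and SRM.

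**Figure D3:**
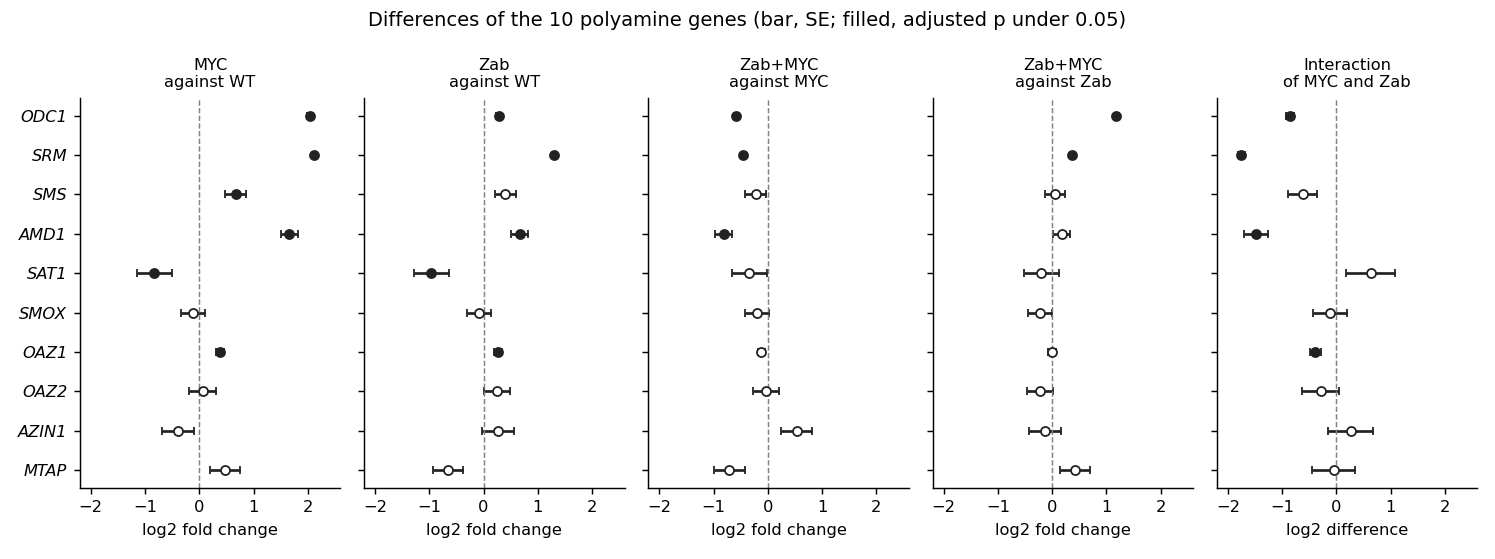
Log2 fold change of the 10 genes in the 4 comparisons and, in the last panel, the log2 difference between the MYC effect with and without Zab (x axis, bars are SE, filled points have an adjusted p under 0.05). The largest values are those of SRM and ODC1 in MYC against WT, at 2.12 and 2.04, and SMOX, OAZ2, AZIN1 and MTAP have no filled point.

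The third comparison asks how Zab alters the levels where MYC is overexpressed. In Zab+MYC against MYC 3 of the 10 genes were called, against 20.0% of all tested genes. All 3 fell, against 8.13% of all tested genes called lower and 11.9% called higher. AMD1 fell 1.76-fold (log2 -0.81 ± 0.16, adjusted p = 5.6e-05), ODC1 1.496-fold (log2 -0.58 ± 0.051, adjusted p = 4.9e-15) and SRM 1.37-fold (log2 -0.45 ± 0.043, adjusted p = 1.5e-13). The summed ratios were 0.555 for AMD1 (counting interval 0.464 to 0.660), 0.671 for ODC1 (0.640 to 0.703) and 0.731 for SRM (0.702 to 0.761). MTAP (log2 -0.71 ± 0.28, adjusted p = 0.063) was not called, but was called lower with RLE scaling (0.048), with edgeR (0.020), with the 4 libraries alone (0.024), without Zab replicate 1 (0.022) or Zab replicate 2 (0.041), and on the deposited scale (0.0027). AZIN1 (log2 0.53, adjusted p = 0.20), OAZ1 (-0.12, 0.28), SMS (-0.22, 0.46), SAT1 (-0.34, 0.51), SMOX (-0.20, 0.58) and OAZ2 (-0.04, 0.93) were not called. On the deposited scale, where the median of all tested genes was -0.31, OAZ1 and SMS were called lower too. MYC was lower in Zab+MYC than in MYC, at 717 ± 1.29 against 1282 ± 37.4 CPM (SD, n = 2 each), and its part was not tested.

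The fourth comparison asks what MYC overexpression adds where Zab is present, and it shares no library with MYC against WT. The groups differed in both introduced genes: Zab+MYC had 3.33-fold the MYC level of Zab, against 14.9-fold for MYC over WT, and its ADAR level was 5.84-fold lower, at 1059 ± 35.2 CPM in Zab+MYC and 6189 ± 137 in Zab (SD, n = 2 each). What part either has in the values was not tested. In Zab+MYC against Zab 2 of the 10 genes were called, against 26.8% of all tested genes. Both rose, against 14.3% of all tested genes called higher and 12.5% called lower. ODC1 rose 2.27-fold (log2 1.18 ± 0.051, adjusted p = 2e-31), with a summed ratio of 2.29 (counting interval 2.13 to 2.46). SRM rose 1.30-fold (log2 0.37 ± 0.043, adjusted p = 7.4e-11), with a summed ratio of 1.30 (counting interval 1.23 to 1.36). The other 8 genes were not called, with log2 values between -0.23 for OAZ2 and 0.42 for MTAP and adjusted p between 0.28 and 0.98. AMD1 had a log2 of 0.18 ± 0.16 (adjusted p = 0.44) and was called higher without Zab replicate 1 (log2 0.49, adjusted p = 0.042). MTAP was called higher without Zab replicate 2 (log2 0.88, adjusted p = 0.040).

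The difference between the MYC effect with Zab and that without it was tested directly as the interaction of MYC and Zab. It was called for 4 of the 10 genes, against 27.9% of all tested genes. Each was lower, against 13.3% of all tested genes called lower and 14.6% called higher. The median log2 difference was -0.34 for the 10 genes and 0.02 for all tested genes. The difference was log2 -1.75 ± 0.061 for SRM (adjusted p = 4.3e-37), -1.48 ± 0.22 for AMD1 (adjusted p = 1.6e-07), -0.86 ± 0.073 for ODC1 (adjusted p = 3.4e-16) and -0.39 ± 0.10 for OAZ1 (adjusted p = 0.0024). SRM and ODC1 had nearly the same fold with MYC alone, 4.36 and 4.12, but with Zab present that of SRM was 1.30 and that of ODC1 2.27. The OAZ1 call ended on the deposited scale (log2 -0.17, adjusted p = 0.21), where the median of all tested genes was 0.23. SMS (log2 -0.62 ± 0.27, adjusted p = 0.077) was not called, but was called with edgeR (0.046), without Zab+MYC replicate 2 (0.022) and without WT replicate 1 (0.049). SAT1 (log2 0.63, adjusted p = 0.33), OAZ2 (-0.29, 0.58), AZIN1 (0.26, 0.69), SMOX (-0.11, 0.83) and MTAP (-0.05, 0.94) were not called. MYC and ADAR themselves had interactions of log2 -2.16 (adjusted p = 1.1e-23) and -2.38 (adjusted p = 4.3e-37), and their part was not tested.

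**Figure D4:**
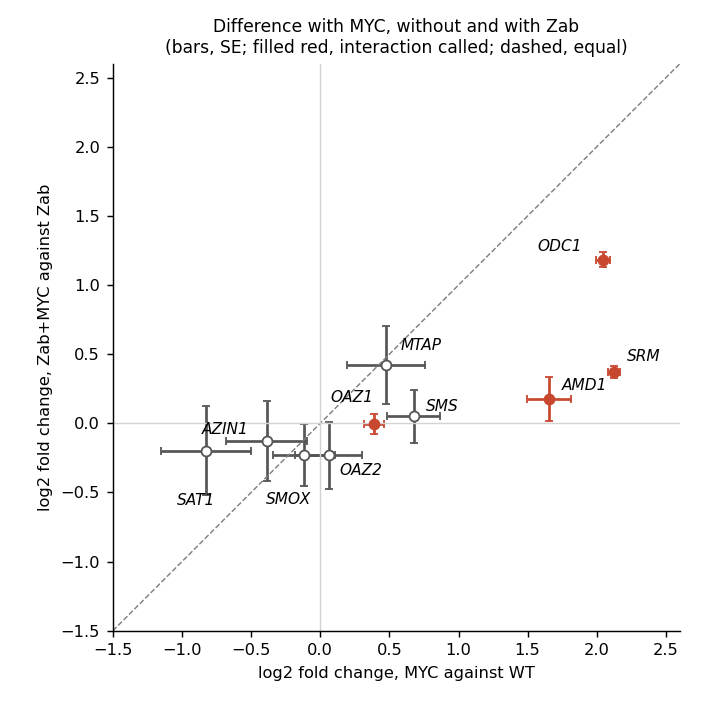
Log2 fold change with MYC in cells without Zab (x axis) and with Zab (y axis) for the 10 genes, bars are SE, the dashed line marks equal effects and red filled points have a called interaction. SRM, AMD1, ODC1 and OAZ1 lie below the line, with SRM at 2.12 on the x axis and 0.37 on the y axis.

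The wider polyamine pathway was described with 5 lists, 30 genes in all, of which 20 were tested. Over all tested genes 27.8% were called higher and 30.4% lower in MYC against WT, as above. The hypusination genes turn a lysine of the translation factor eIF5A into hypusine, with spermidine as donor. Among them EIF5A was called higher and DHPS lower in that comparison. EIF5A rose 2.25-fold to 472 ± 42.4 CPM in MYC, against 208 ± 8.73 in WT (adjusted p = 4.7e-19). DOHH, the hydroxylase of the last step, stood at 24.7 ± 2.07 CPM in MYC, against 5.89 ± 0.726 in WT. EIF5A2 is a close paralog whose reads the counting could confuse with those of EIF5A. It stood at 24.3 ± 8.89 CPM in MYC, against 6.49 ± 3.75 in WT. DOHH and EIF5A2 passed the filter on low values through groups other than WT, so neither a fold nor a test is given for them. DHPS, the deoxyhypusine synthase, fell 1.48-fold (adjusted p = 0.0012), a call that ended without MYC replicate 2 (adjusted p = 0.061). Of the polyamine transport genes 2 of 3 tested rose and 1 fell. SLC3A2, a transporter heavy chain linked to polyamine uptake, rose 2.998-fold to 499 ± 41.3 CPM in MYC, against 165 ± 17.2 in WT (adjusted p = 1.2e-25), and the P-type ATPase ATP13A3 rose 2.49-fold (adjusted p = 2.7e-07). ATP13A2, which exports polyamines from lysosomes, fell 1.70-fold (adjusted p = 6.7e-07).

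Of 7 tested genes of the methionine cycle and methionine salvage, 3 rose and 1 fell in MYC against WT, a share close to the 58.2% of all tested genes called. ENOPH1, a salvage enzyme downstream of MTAP, rose 2.49-fold to 102 ± 0.877 CPM in MYC, against 39.6 ± 2.56 in WT (adjusted p = 7.2e-08), and AHCY, which clears S-adenosylhomocysteine, rose 1.28-fold (adjusted p = 0.00026). MAT2A, which makes S-adenosylmethionine, rose 1.42-fold (adjusted p = 0.0039) and its regulatory subunit MAT2B fell 1.69-fold (adjusted p = 0.023). Both of these calls ended without a single library, that of MAT2A without MYC replicate 1 (0.091) or WT replicate 2 (0.051) and that of MAT2B without MYC replicate 1 (0.31) or WT replicate 1 (0.19), with no filter (0.073) and with DESeq2 (0.19). Of 4 tested genes of ornithine supply and use 2 rose, ALDH18A1, of proline and ornithine synthesis, by 2.07-fold (adjusted p = 2.3e-05) and the ornithine carrier SLC25A15 by 1.47-fold (adjusted p = 0.047). The SLC25A15 call ended without any 1 of the MYC and WT libraries (adjusted p 0.085 to 0.16), with replicate number as a block (0.0501), with library totals (0.13), on the deposited scale (0.076) and with DESeq2 (0.19). Of the further turnover genes 2 were tested, among them PAOX, an oxidase of acetylated polyamines. It stood at 1.90 and 1.61 CPM in MYC, against 11.52 and 12.9 in WT, with 48 tags over all 8 libraries. It passed the filter on low values through the groups where it is higher, so neither a fold nor a test is given for it.

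In Zab against WT 13.1% of all tested genes were called higher and 11.3% lower. In the hypusination list EIF5A was called higher and DHPS lower. Transport had 2 of 3 higher, methionine genes had 0 of 7 higher and 1 lower, and 0 of 4 ornithine and 0 of 2 turnover genes were called. Of these calls only those of EIF5A (1.41-fold, adjusted p = 1.1e-05) and SLC3A2 (1.98-fold, adjusted p = 8.6e-15) kept their threshold with each library left out in turn. Those of DHPS, MAT2B and ATP13A3 did not. The EIF5A value turned to log2 -0.048 on the deposited scale. EIF5A2 and DOHH passed the filter on low values through groups other than WT, as above, and no test is given for them. In Zab+MYC against MYC, where 20.0% of all tested genes were called, SLC3A2, which fell (log2 -0.30, adjusted p = 0.0099), was the only call among the 20 genes, and it ended without Zab+MYC replicate 1 (0.065) or MYC replicate 1 (0.16). In Zab+MYC against Zab, where 14.3% were called higher and 12.5% lower, the calls were 1 of 4 hypusination genes, 2 of 7 methionine genes and 1 of 4 ornithine genes higher, and in transport 1 of 3 higher and 1 lower. The OAT and SLC3A2 calls among these ended without some single libraries (adjusted p up to 0.32 and 0.10). The interaction was called lower for EIF5A, 1 of 4 ornithine genes and 2 of 3 transport genes, and higher for 0 of the 20 genes. Over all tested genes it was called lower for 13.3% and higher for 14.6%. DHPS was called higher with library totals (adjusted p = 0.032) and on the deposited scale (0.0082), and MAT2B on the deposited scale (0.036). SLC3A2 had an interaction of log2 -1.29 (adjusted p = 2e-13) and EIF5A of -0.62 (adjusted p = 8.5e-05). The interaction calls of ALDH18A1 and ATP13A3 ended without some single libraries. As EIF5A2 and DOHH entered the test through groups other than WT, no interaction test is given for them.

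Over the 8 libraries the genes most like ODC1 by Pearson correlation of log2(CPM + 2) were RPL7L1 (r = 0.998), LRRC59 (r = 0.998) and DDX51 (r = 0.998). For SAT1 they were ID2 (r = 0.973), PRMT6 (r = 0.971) and RTKN (r = 0.967). Among the polyamine genes ODC1 was most like AMD1 (r = 0.877) and SRM most like OAZ1 (r = 0.910), while SAT1 was most like SMOX (r = 0.621). The 8 libraries form 4 pairs, so these values mostly compare 4 group levels and are given as a description.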

How the data were processed

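Per the labels' protocols, libraries came from an Abclonal kit after Trizol extraction. The submitters' processing notes list Trim Galore 0.6.6, STAR, HOMER 4.11.1 and the builds hg19 and dm6. Exon tags of coding genes (RefSeq, hg19) were counted with HOMER, which reports 1 transcript for each symbol, per the file headers. The transcript lengths used per kb are those in the deposited tables. The deposited values are a signal, that is tags times 1 factor per library set by the authors. All were whole multiples of a step (tolerance 0.1 step), and 2 steps were taken as 1 tag, an assumption under which exon tags stay below the header totals. How the factor was set, and whether tags on dm6, a fly build, entered it, the sources used here do not say. Nor do they say whether strand or multi-mapping reads were used. TMM sets the typical gene near no change, so a shift shared by most genes would not show in CPM. No other gene of the tables overlaps the 10 genes. SRM, SMS, AMD1, OAZ1 and MTAP have pseudogenes named in RefSeq, whose reads the counting could confuse. Tags of introduced and endogenous MYC or ADAR are not separated.

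Genes were kept with filterByExpr (9673 of 19414), scaled by TMM and tested with limma (trend) on log2(CPM + 2) over all 8 libraries, with a mean for each group, which leaves 4 residual degrees of freedom. Very small p-values rest on spread pooled over genes. The pseudocount shrinks fold changes of low genes. Tests were two-sided. The alternatives were RLE scaling, library totals, the deposited scale, pseudocounts of 1 and 5 CPM, no filter, 5 CPM in 2 libraries, edgeR's quasi-likelihood test and DESeq2 on recovered tags (100% of values were whole steps, but 37.7% to 42.3% of the values above 0 were odd steps, that is ended in 0.5 tag) rounded to whole numbers, the 4 libraries alone, a replicate block and each library left out. The summed libraries were chosen after seeing the data. All 10 genes are named, with wider pathway genes where called. The genes and lists were chosen with earlier results of these data known. Scripts were tested on simulated data. Fits ran in R 4.3.3 (DESeq2 1.42.0, edgeR 4.0.16, limma 3.58.1), and all other steps and plots in Python 3.11.15 (matplotlib 3.10.9, scipy 1.17.1, pandas 2.3.3, numpy 2.4.6).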

Additional observations from a re-analysis of the deposited data

Results flagged for a closer look

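For 4 of the 10 genes the MYC effect differed between cells with and without Zab by the interaction test in limma, against 27.9% of all tested genes. The log2 difference, MYC effect with Zab minus that without, was -1.75 ± 0.061 for SRM (adjusted p = 4.3e-37), -1.48 ± 0.22 for AMD1 (adjusted p = 1.6e-07), -0.86 ± 0.073 for ODC1 (adjusted p = 3.4e-16) and -0.39 ± 0.10 for OAZ1 (adjusted p = 0.0024). The OAZ1 call ended on the deposited scale (adjusted p = 0.21). The SRM level in Zab+MYC lay between those of MYC and Zab in every library, at 2139 and 2140 CPM. MYC itself had an interaction of log2 -2.16 (adjusted p = 1.1e-23), with 717 CPM in Zab+MYC, 1282 in MYC, 215 in Zab and 84.9 in WT on average. ADAR, whose tags may include the Zab construct, had one of log2 -2.38 (adjusted p = 4.3e-37), with 1059 CPM in Zab+MYC, 242 in MYC, 6189 in Zab and 271 in WT on average. The part of either in these differences was not tested.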

How the results depend on the processing

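Of the calls for the 10 genes, ODC1, SRM, AMD1, SMS and OAZ1 in MYC against WT, SRM in Zab against WT, ODC1, SRM and AMD1 in Zab+MYC against MYC, ODC1 and SRM in Zab+MYC against Zab, and the interactions of SRM, AMD1 and ODC1 kept their direction and call under all alternatives run. On the deposited scale ODC1 and OAZ1 in Zab against WT turned to log2 -0.268 and -0.271, and so did EIF5A (-0.048), MAT2A (-0.429), ARG2 (-0.505) and ATP13A2 (-0.309), while the median of all tested genes was -0.516. The number of the 10 genes called in Zab against WT was 5 in the report, 2 with DESeq2 and 2 to 6 with single libraries left out, and in Zab+MYC against MYC it was 3, or 6 on the deposited scale. Over all tested genes the calls in Zab against WT numbered 2364, or 5039 on the deposited scale (248 higher, 4791 lower) and 889 with DESeq2. In Zab+MYC against MYC they numbered 1935, or 3494 on the deposited scale (580 higher, 2914 lower), 702 with DESeq2 and 1141 to 2211 with single libraries left out. With library totals they split into 1347 higher and 550 lower, against 1149 and 786. In Zab+MYC against Zab they numbered 2590, or 926 with DESeq2 and 1710 to 2647 with single libraries left out, and for the interaction 2696, or 1118 with DESeq2. On the deposited scale those 2 comparisons split into 2156 higher and 783 lower and into 2094 and 817. The cause of these changes was not tested. With replicate number as a block the 10 genes gave 6, 5, 3 and 2 calls in the 4 comparisons and 4 for the interaction, as without it. Same-numbered libraries did not deviate together (correlations over genes from -0.0227 to 0.0143). As the libraries of a group differed by little more than counting error, this could not show whether the numbers pair them. Depth limits SAT1, AZIN1 and MTAP most, with 24 to 99 tags per group.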
